A study of Mus musculus with 40 samples.

Results

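Uterine smooth muscle contracts through a set of well-known proteins, and the genes of 32 of them were followed through 40 RNA-seq libraries of mouse uterus. The set was a list of gene names, read by name from a table of 54532 genes, and all 32 were found. All 32 also passed the filter on low values (1 FPKM or more in at least 5 libraries), as did 16226 genes in total. The libraries formed 8 groups of 5. Prepubertal mice, treated from postnatal day 25, received vehicle (PBS or saline, the control), doxorubicin, doxorubicin with anti-Müllerian hormone (doxorubicin+AMH), or AMH alone, and uteri were taken 4 h or 24 h later. Doxorubicin, an anthracycline that poisons topoisomerase II, was given as 2 weekly doses of 3 mg/kg, so differences may include those left by the earlier dose. The AMH dose in the labels is 0.75 mg/kg. No strain, genotype or transgene is named in the labels. The libraries are numbered as biological replicates without a statement that each came from 1 mouse, so p-values measure the spread between these libraries. Levels are FPKM, reads per length of the gene and per depth of the library, so levels of different genes can be compared.

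The myometrium is the smooth muscle wall of the uterus. Its cells contract when calcium, bound by calmodulin, activates myosin light chain kinase, which phosphorylates the regulatory light chain of smooth muscle myosin and lets it pull on actin filaments. Most genes of this apparatus are switched on by serum response factor (SRF) together with its coactivator myocardin, through a promoter element called the CArG box. The receptor for oxytocin and the gap junctions between cells couple the muscle to hormonal signals and spread the contraction.

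Promoters of 28 of the 32 genes were found in the RefSeq table of build GRCm38.p6. Within the 250 bases before the start site, an exact CArG box was present in 4 of these 28 (Fbxl22, Ldb3, Myl9 and Srf), or 14.3%, against 1.62% of all genes in that source, counting any promoter of a gene (1.47% of single promoters). Allowing 1 other letter in the core of the box, 9 of 28 had a match (those 4 with Acta2, Cacna1c, Jph2, Pcp4 and Synm), or 32.1%, against 9.78% of all genes (8.59% of single promoters). The element was searched on both strands, on which it reads alike. The muscle element CATTCC, searched on both strands, was present in 9 of 28 (32.1%), against 14.4% of all genes (12.6% of single promoters). A match describes the letters in this window and does not show binding. The stretches that hold the boxes are shown for 5 of the genes lower 24 h after doxorubicin, with the boxes in capitals, 5′ to 3′ on the gene's own strand. Jph2 and Pcp4 were also lower then and have a box with 1 other letter, but are not shown. Whether the boxes bear on these changes was not tested. Only a short stretch around the boxes of Acta2 and Fbxl22 is shown, because these boxes are not all clear of annotated exons. Of their 250 bases, 217 and 207 lie in exons of the GENCODE M21 annotation. Distances are from the RefSeq start, and other annotations can place the start elsewhere.
Acta2, box at 84 bases before the start, chr19:34255440-34255465, minus strand: gctgaggtCCCTATATGGttgtgtta
Acta2, box at 34 bases before the start, chr19:34255390-34255415, minus strand: tctttgctCCTTGTTTGGgaagcgag
Myl9, chr2:156775214-156775419, plus strand: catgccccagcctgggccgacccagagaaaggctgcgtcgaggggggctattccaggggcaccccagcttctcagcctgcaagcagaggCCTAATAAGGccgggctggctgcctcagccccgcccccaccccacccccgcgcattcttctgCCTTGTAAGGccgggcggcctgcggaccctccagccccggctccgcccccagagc
Fbxl22, chr9:66514798-66514823, minus strand: aagaaatcCCTTTTAAGGaaaacttg
Ldb3, chr14:34588683-34588931, minus strand: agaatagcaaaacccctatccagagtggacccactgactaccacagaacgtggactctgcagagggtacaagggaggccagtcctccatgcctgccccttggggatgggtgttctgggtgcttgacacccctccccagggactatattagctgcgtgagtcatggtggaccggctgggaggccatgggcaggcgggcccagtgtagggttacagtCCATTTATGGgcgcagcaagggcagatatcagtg
Srf, chr17:46556176-46556412, minus strand: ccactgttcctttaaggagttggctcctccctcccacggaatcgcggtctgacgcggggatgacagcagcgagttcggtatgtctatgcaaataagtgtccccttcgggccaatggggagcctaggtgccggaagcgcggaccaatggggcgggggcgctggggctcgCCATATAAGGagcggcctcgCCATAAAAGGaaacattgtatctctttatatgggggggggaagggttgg
Srf holds 2 exact boxes, and Fbxl22, Ldb3 and Myl9 hold 1 each. Myl9 has a further box with 1 other letter in the core, as have both boxes of Acta2.

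The 32 genes covered a wide range of levels. Averaged over all 40 libraries, Acta2 (smooth muscle alpha actin) stood at 1736 FPKM, above 99.9% of tested genes, and Myl9 (the regulatory light chain) at 868 FPKM. Actg2 (smooth muscle gamma actin) stood at 340 FPKM, Flna (filamin A) at 323 FPKM, and Myh11 (smooth muscle myosin heavy chain) and Des (desmin) each at 240 FPKM. The lowest were Ldb3 at 1.24 FPKM and Kcnma1 at 0.991 FPKM. The highest library was 1.88 times the lowest for Srf and 36.9 times the lowest for Oxtr, the oxytocin receptor, with the other 30 genes in between. By these levels of actin, myosin and desmin, the tissue holds smooth muscle.

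Some levels carry a limit of counting. Of the 32 genes, 10 share exon bases with another gene of the GENCODE M21 annotation, and whether reads were counted by strand is not given in the sources used here. The share was 67.9% of exon bases in Tagln, 64.7% in Pln, 23.7% in Pcp4 and 16.3% in Smtn, and under 10% in Fbxl22, Mylk, Synm, Kcnma1, Des and Ppp1r12b. Tagln (transgelin, an actin-binding protein abundant in smooth muscle) stood at only 6.09 FPKM beside 1736 FPKM of Acta2. Levels of Tagln and Pln are uncertain for this reason.

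Depth lay between 16251563 and 27391049 reads in genes. The libraries also differed in 2 marker lists. For 20 oestrogen-responsive genes, the mean log2(FPKM + 1) exceeded the 40-library median by over 0.6 in 8 libraries: control 1 and doxorubicin 2 at 4 h, and controls 1, 2 and 4, doxorubicin 1 and 4 and AMH 3 at 24 h. For 13 markers of oviduct and ciliated cells, it exceeded the median by over 1 in control 4, doxorubicin 3 and 4 and doxorubicin+AMH 5 at 4 h, and in doxorubicin 3, 4 and 5 and doxorubicin+AMH 4 at 24 h. Counts of called genes are also given without these libraries where they changed by over 1.5 times. In bulk tissue, fewer muscle cells and less RNA per muscle cell cannot be told apart.

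The largest number of contractile genes called in this design came 24 h after treatment with doxorubicin. Of the 32 genes, 25 fell against control after doxorubicin alone and 0 rose, with a median log2 fold change of -0.65. Of all 16226 tested genes, 9.95% fell and 8.44% rose in this comparison (limma, Benjamini-Hochberg adjusted p under 0.05). Fold changes are on the log2(FPKM + 1) scale, which understates the change of low genes. Over all tested genes the median stayed between -0.01 and 0.02 in all 17 comparisons. In 19 of the 32 genes every doxorubicin library lay below every control library. The share of all tested genes without overlap was not computed, here or in later comparisons, so such counts have no background.

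The thin filament genes fell, 9 of 9. Actg2 read 732, 1017, 417, 703 and 442 FPKM in control libraries 1 to 5, and 359, 109, 144, 180 and 243 FPKM after doxorubicin. The groups did not overlap, and the means were 662 ± 246 and 207 ± 98.1 FPKM (SD, n = 5), a log2 fold change of -1.72 (SE 0.24, limma adjusted p = 2.59e-05). Acta2 read 3126, 3160, 2187, 2482 and 2032 FPKM in controls and 1615, 1024, 1011, 1155 and 1559 FPKM after doxorubicin. Its log2 fold change was -1.03 (SE 0.15, limma adjusted p = 4.79e-05), again without overlap. Cnn1 (calponin, which binds actin and restrains the myosin ATPase) read 451, 421, 267, 311 and 257 FPKM in controls against 187, 95.3, 97.6, 116 and 182 FPKM. The groups were separate here too, with a log2 fold change of -1.35 (SE 0.20). The tropomyosins, which lie along the actin filament, fell as well, Tpm2 from 458 ± 101 to 203 ± 54 FPKM (-1.19, adjusted p = 2.23e-05) and Tpm1 from 275 ± 33.2 to 157 ± 27.3 FPKM (-0.81).

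Smtn (smoothelin, a marker of contractile smooth muscle) read 153, 111, 124, 105 and 126 FPKM in controls and 96.3, 62.6, 67.2, 81.8 and 88.3 FPKM after doxorubicin, with all control libraries higher (log2 fold change -0.65). Cald1 (caldesmon, which like calponin restrains actomyosin) fell by 0.64 on the log2 scale and Lmod1 (leiomodin, a nucleator of actin filaments) by 0.51. For Tagln (-0.64) the groups overlapped, at 11.9, 12.5, 7.61, 6.8 and 8.35 FPKM in controls and 6.32, 4.71, 4.17, 8.15 and 4.93 FPKM after doxorubicin. Lmod1 lost its call without control library 1 or 2 or doxorubicin library 2 or 3 (limma adjusted p = 0.09, 0.0648, 0.0639 and 0.0532).

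Of the myosin motor and its regulators, 3 of 5 fell. Myl9 went from 1200 ± 174 to 616 ± 135 FPKM (SD, n = 5), a log2 fold change of -0.98 (limma adjusted p = 4e-05). Myh11 read 299, 358, 334, 262 and 277 FPKM in controls and 234, 136, 142, 157 and 201 FPKM after doxorubicin (-0.83, SE 0.16, limma adjusted p = 0.000792), with no overlap. Mylk (myosin light chain kinase) read 186, 161, 174, 144 and 172 FPKM against 134, 101, 94.6, 91.4 and 136 FPKM (-0.60), also without overlap. Neither regulator of the opposing phosphatase passed the test. Ppp1r12b, a targeting subunit of myosin phosphatase, had a log2 fold change of -0.37 (limma adjusted p = 0.062). Ppp1r14a (CPI-17, an inhibitor of that phosphatase) read 54.9, 63, 49.1, 31.9 and 50.4 FPKM in controls and 43.9, 27.1, 35.9, 42.1 and 34.7 FPKM after doxorubicin, which overlap (-0.42, limma adjusted p = 0.0872).

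Of the intermediate filament genes and filament anchors, 6 of 7 fell. Des (desmin, the intermediate filament of muscle) read 466, 398, 280, 288 and 298 FPKM in controls and 238, 183, 179, 178 and 225 FPKM after doxorubicin, without overlap (log2 fold change -0.76, SE 0.16, limma adjusted p = 0.00307). Fbxl22, an F-box protein of muscle, had the largest log2 fold change of this group, -1.31, from 25.7 ± 5.92 to 10.3 ± 4.74 FPKM (adjusted p = 2.23e-05). Hspb7, a small heat shock protein of muscle, went from 39.3 ± 9.73 to 19 ± 4.8 FPKM (-1.01), and Flna, which crosslinks actin, from 397 ± 42.5 to 240 ± 49.7 FPKM (-0.74). Ldb3, a PDZ-LIM protein of the Z-disc, went from 2.22 ± 0.577 to 1.07 ± 0.183 FPKM (-0.62), and Synpo2, an actin-bundling protein, from 45 ± 8.78 to 29.5 ± 6.76 FPKM (-0.60). Synm (synemin, an intermediate filament protein that assembles with desmin) was 11.1 ± 0.571 FPKM after doxorubicin and 9.63 ± 2.56 FPKM in controls and did not pass the test (0.22, adjusted p = 0.27).

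In calcium handling and membrane excitability 4 of 7 genes were called lower, and all 7 log2 fold changes lay below 0. Jph2 (junctophilin 2, which ties the sarcoplasmic reticulum to the plasma membrane) went from 67.9 ± 12 to 35.2 ± 7.21 FPKM (SD, n = 5), a log2 fold change of -0.93 (limma adjusted p = 4.81e-05). Pcp4 (a calmodulin-binding peptide) read 38.6, 53.5, 24.4, 26.2 and 18.7 FPKM in controls and 15.8, 9.83, 7.6, 12.7 and 14 FPKM after doxorubicin (-1.30). All controls lay above all doxorubicin libraries, with control library 2 the highest. Casq2 (calsequestrin 2, the calcium buffer of the reticulum) was 0.783 ± 0.369 against 2.56 ± 1.07 FPKM (-0.97), and Kcnma1, the pore of the large-conductance calcium-activated potassium (BK) channel, 0.812 ± 0.354 against 1.32 ± 0.164 FPKM (-0.37). Kcnma1 lost its call without control library 2 or 4 or doxorubicin library 3 or 4 (limma adjusted p = 0.0581, 0.0551, 0.0755 and 0.088).

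Kcnmb1, the beta subunit that the BK channel carries in smooth muscle, read 15.1, 16.4, 13.5, 10.4 and 13.5 FPKM in controls and 13.7, 8.12, 11.9, 12.4 and 9.52 FPKM after doxorubicin. The ranges overlapped and it did not pass the test (-0.29, limma adjusted p = 0.144). Neither did Cacna1c, the pore of the L-type calcium channel (5.86 ± 0.693 against 7.34 ± 1.19 FPKM, -0.28, adjusted p = 0.0815). Pln (phospholamban, which restrains the calcium pump of the reticulum) read 2.14, 2.03, 2.24, 0.992 and 1.49 FPKM in controls and 1.53, 1.88, 1.38, 1.49 and 1.34 FPKM after doxorubicin (-0.12, 2 SE each way -0.45 to 0.21, adjusted p = 0.623).

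The genes that couple the muscle to oxytocin were read one by one. Oxtr read 35.3, 34.5, 10.6, 17.5 and 10.8 FPKM in controls, with libraries 1 and 2 far above the others, and 15, 4.06, 7.57, 8.04 and 4.01 FPKM after doxorubicin. It fell (log2 fold change -1.34, SE 0.31, limma adjusted p = 0.00512), although doxorubicin library 1 lay within the range of the controls. Gja1 (connexin 43, the main gap junction protein of myometrium) read 12.5, 12, 17.4, 22.7 and 14.2 FPKM in controls and 16.6, 13.4, 15.4, 14.6 and 32.1 FPKM after doxorubicin, with doxorubicin library 5 the highest. It did not pass the test (0.18, 2 SE each way -0.26 to 0.62, adjusted p = 0.573).

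Both transcriptional regulators fell. Srf read 65.8, 64.8, 53.5, 57.8 and 62.2 FPKM in controls and 46, 37.6, 37.9, 37.2 and 50.8 FPKM after doxorubicin, without overlap (log2 fold change -0.53, SE 0.09, limma adjusted p = 0.000248). Myocd (myocardin) read 7.59, 9.65, 9.45, 10.1 and 7.72 FPKM against 7.75, 5.46, 5.22, 4.31 and 6.21 FPKM (-0.56, limma adjusted p = 0.00329), with doxorubicin library 1 above controls 1 and 5.

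**Figure D1:**
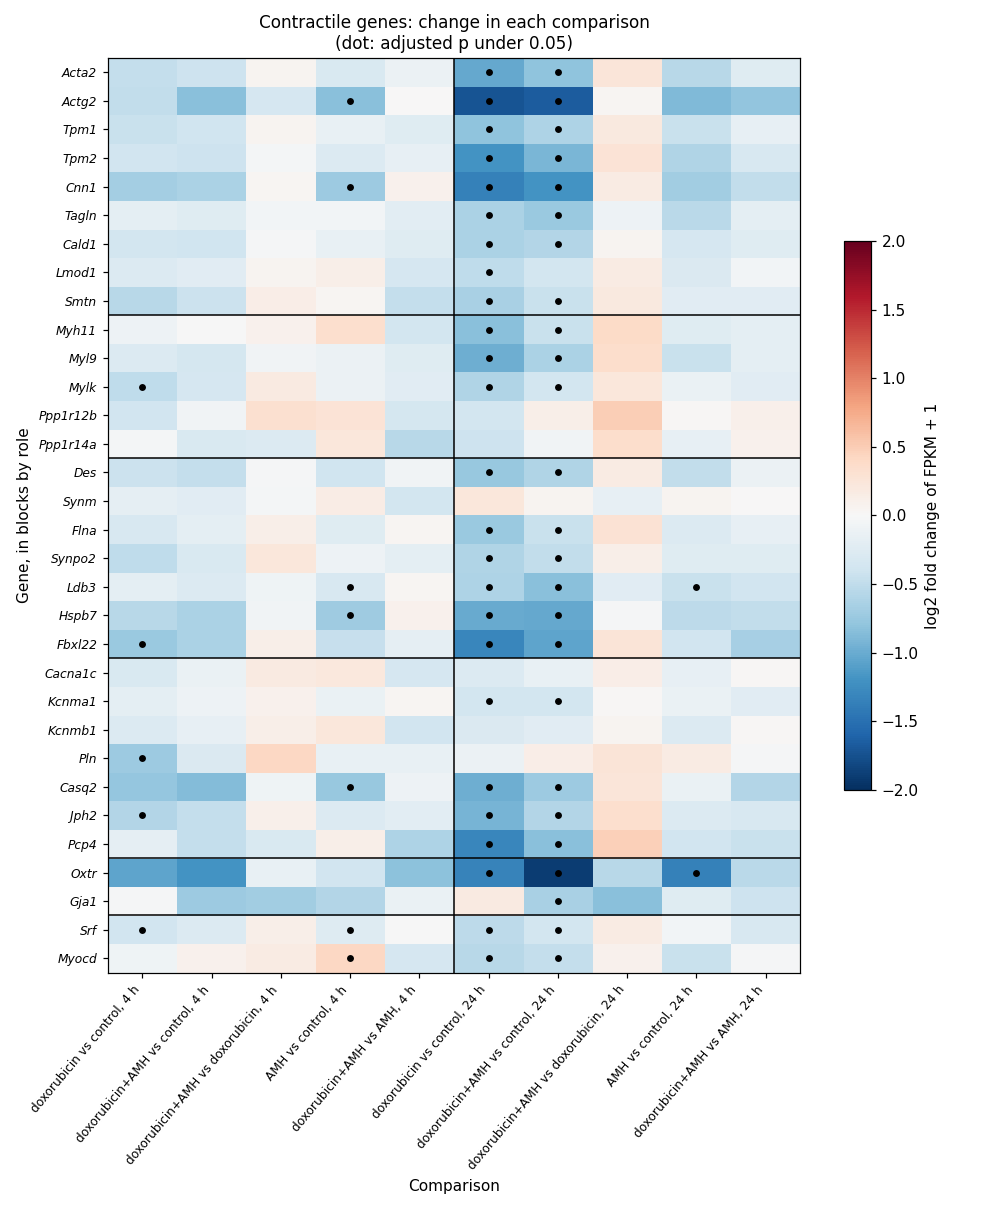
Log2 fold change of FPKM + 1 (colour, from -2 to 2) of the 32 contractile genes (rows, in blocks by role) in the 10 comparisons of treatments at 1 time (columns); dots mark adjusted p under 0.05. The columns of doxorubicin and of doxorubicin+AMH against control at 24 h hold 25 dots each, all on the lower side, while both columns of doxorubicin+AMH against doxorubicin hold 0.

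The 24 h count depended on the groups that share the estimate of spread and on some libraries. With only the control and doxorubicin groups in the fit, 0 of the 32 genes were called, with 0.154% of all genes. The log2 fold changes did not move with this setting, such as -1.72 for Actg2 and -1.03 for Acta2. Tpm1, Tpm2 and Cnn1 (limma adjusted p = 0.0564 each), Acta2 (0.0578) and Actg2 (0.0614) lay near the threshold. Tagln (0.144) and Lmod1 (0.146) lay further from it. Without the libraries high in oestrogen-responsive genes, which leaves controls 3 and 5 and doxorubicin 2, 3 and 5 at 24 h, 8 were called, with 0.376% of all genes. Those 8 were Actg2 (log2 fold change -1.45), Fbxl22 (-1.17), Tpm2 (-1.05), Myh11 (-0.95), Myl9 (-0.89), Jph2 (-0.86), Tpm1 (-0.80) and Synpo2 (-0.77). All 25 kept a value below 0. Oxtr moved to -0.97 (limma adjusted p = 0.312) and Casq2 to -0.57 (limma adjusted p = 0.645). Without the libraries high in oviduct markers 19 were called, and Lmod1, Synpo2, Kcnma1, Casq2, Oxtr and Myocd lost the call.

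**Figure D2:**
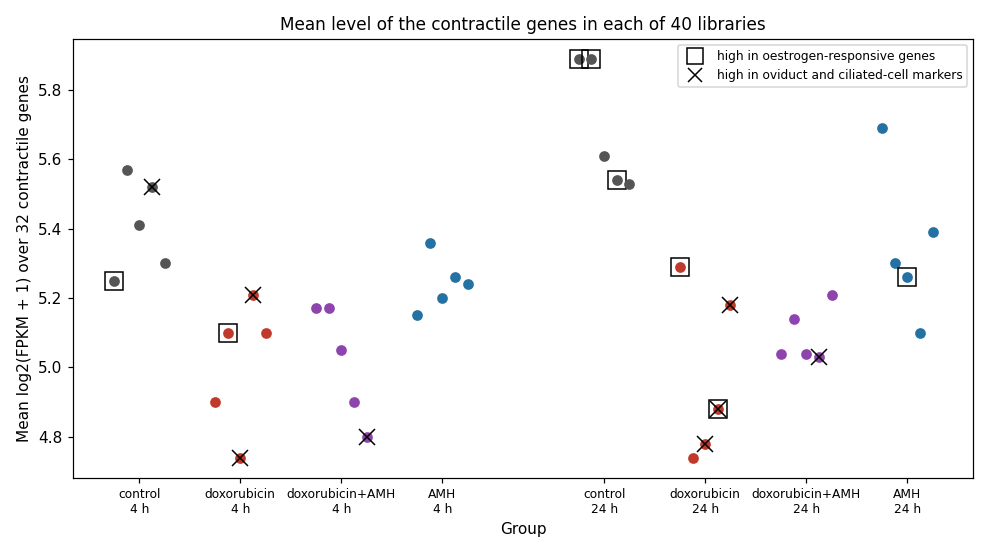
Mean log2(FPKM + 1) over the 32 contractile genes (y axis) in each of the 40 libraries, by group (x axis, 5 points each). Squares mark libraries high in oestrogen-responsive genes and crosses those high in oviduct and ciliated-cell markers. At 24 h the controls lie between 5.53 and 5.89 and the doxorubicin libraries between 4.74 and 5.29.

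Other genes of the contractile machinery were read from lists. Of 45 measured genes of adhesion and the smooth muscle cytoskeleton, 17 fell and 2 rose 24 h after doxorubicin (median log2 fold change -0.27). They included Pdlim7, a PDZ-LIM protein (37.3 against 69.1 FPKM, -0.88), Itga5, a chain of the fibronectin receptor (20.8 against 38 FPKM, -0.81), and Actn1, an actinin (67.5 against 102 FPKM, -0.59). Of 28 cofactors and regulators of SRF, 2 fell and 2 rose (median -0.06). Csrp1, a LIM protein of smooth muscle, fell (475 against 738 FPKM, -0.64), and Mrtfb, a myocardin-related coactivator, rose (11.1 against 7.41 FPKM, 0.53).

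Non-muscle and striated relatives of the contractile genes had 9 of 25 lower and 0 higher (median -0.31). Among them were Flnc, the filamin of striated muscle (22 against 37.7 FPKM, -0.78), Cnn2, a calponin found beyond muscle (87.3 against 141 FPKM, -0.71), cytoplasmic actin Actb (665 against 1070 FPKM, -0.66), and Acta1, skeletal alpha actin (43 against 135 FPKM, -1.80). Of 37 other uterotonic receptors and channels, 9 rose and 2 fell (median 0.21). Kcnh2, a voltage-gated potassium channel, was lower (11.4 against 29.2 FPKM, -1.32, limma adjusted p = 1.72e-06) and Ptgfr, the prostaglandin F receptor, higher (4.93 against 2.66 FPKM, 0.83).

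Markers of other cell types were read beside these values. Of 9 markers of pericytes, vessel cells that share contractile genes with smooth muscle, 1 fell and 0 rose after doxorubicin at 24 h, with a summed level of 139 to 231 FPKM against 84.7 to 204 FPKM in controls. The 13 oviduct and ciliated-cell markers summed to 8.54 to 382 FPKM against 6.72 to 34.3 FPKM, and the 20 oestrogen-responsive genes to 799 to 1882 FPKM against 663 to 7951 FPKM. The 10 stroma markers summed to 1627 to 2822 FPKM against 2843 to 3774 FPKM, with 2 called lower, the collagens Col1a1 (616 against 1140 FPKM, -0.93) and Col1a2 (297 against 537 FPKM, -0.89). Of the 14 skeletal muscle markers 6 were tested, 3 fell and 1 rose, and they summed to 39.1 to 132 FPKM against 122 to 305 FPKM. Acta1, given above among the striated relatives, is also in this list, so its level enters this sum. The skeletal markers Myh4 and Tnnc2 were at 0 in all 5 controls, and Myh1 in all 5 doxorubicin libraries. Of the tested markers of other cells, 0 of 8 of endothelium fell and 1 rose, 0 of 10 of epithelium fell and 2 rose, 1 of 8 of macrophages fell and 1 rose. The counts were 0 and 0 of 5 for mesothelium, 0 and 0 of 3 for nerve and glia, 0 and 0 of 4 for ovary and 0 and 0 of 5 for adipocytes. The part of any of these cells in the result was not tested.

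Doxorubicin with AMH was compared with the same 24 h controls, which both comparisons share. Of the 32 genes, 25 fell and 0 rose (median log2 fold change -0.58), while 18.6% of all genes fell and 15.7% rose. In 21 of the 32 every doxorubicin+AMH library lay below every control, a count without a share over all genes beside it. By role, 8 of 9 thin filament genes fell, 3 of 5 of the myosin motor, 6 of 7 filament anchors, 4 of 7 of calcium handling, and both genes of oxytocin coupling and of transcription. Actg2 read 153, 195, 186, 229 and 226 FPKM (log2 fold change -1.67, limma adjusted p = 2.56e-05), below every control. Acta2 read 1339, 1393, 1509, 1574 and 1538 FPKM (-0.80) and Cnn1 141, 162, 129, 143 and 154 FPKM (-1.19). These are also below every control, and their SD was smaller than after doxorubicin alone, 31 against 98.1 FPKM for Actg2. Ldb3 had the smallest adjusted p of the 32, 7.88e-06, at 0.789 ± 0.282 against 2.22 ± 0.577 FPKM (SD, n = 5), a log2 fold change of -0.84 (limma).

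Oxtr read 4.17, 6.13, 4.7, 2.3 and 5.61 FPKM after doxorubicin with AMH, all below the lowest control (log2 fold change -1.90, SE 0.31, limma adjusted p = 0.000103). Gja1 read 10.2, 7.91, 8.61, 13.2 and 7.95 FPKM and fell against control (-0.65, limma adjusted p = 0.023), with library 4 inside the range of the controls. It lost the call without control library 4 (limma adjusted p = 0.0898) or doxorubicin+AMH library 2 or 5 (0.0576 and 0.057). Desmin (Des) read 209, 238, 209, 220 and 238 FPKM (-0.60), and Mylk 130, 127, 127, 121 and 143 FPKM (-0.36), each below every control. Mylk lost its call without control library 1 (limma adjusted p = 0.0683). Smtn read 85.4, 97.4, 74.2, 81 and 116 FPKM (-0.45), which overlaps the controls, and lost its call without control library 1 or doxorubicin+AMH library 3 (limma adjusted p = 0.0659 and 0.0531).

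Myh11 read 210, 241, 210, 202 and 256 FPKM after doxorubicin with AMH, below every control (log2 fold change -0.45, limma adjusted p = 0.0264). It lost its call without control library 2 (limma adjusted p = 0.0897) or doxorubicin+AMH library 1 or 3 (0.0577 and 0.054), and without the libraries high in oviduct markers (0.0564). Casq2 (-0.73) lost its call without control library 2 (limma adjusted p = 0.0619). Both transcriptional regulators were below all controls, Srf at 48.7, 48.6, 43.7, 44.7 and 47.3 FPKM (-0.37) and Myocd at 5.37, 6.1, 5.58, 6.87 and 6.61 FPKM (-0.47). Pcp4 read 17.4, 19.8, 16.9, 13.3 and 15.4 FPKM and fell with an overlap (-0.84), and Tagln 5.63, 6.2, 3.9, 4.45 and 5.56 FPKM without one (-0.74). Lmod1 (-0.36, limma adjusted p = 0.0607), Ppp1r12b (0.12), Ppp1r14a (-0.07), Synm (0.06), Cacna1c (-0.15), Kcnmb1 (-0.23) and Pln (0.14) did not pass the test.

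With only the control and doxorubicin+AMH groups in the fit, 19 of the 25 calls remained, and Smtn, Synpo2, Kcnma1, Casq2, Pcp4 and Gja1 lost theirs (limma adjusted p from 0.0517 to 0.0717). With voom 20 remained, and Smtn, Myh11, Mylk, Synpo2 and Gja1 lost theirs (adjusted p from 0.0561 to 0.181). Without the libraries high in oestrogen-responsive genes, 3 of the 25 calls of doxorubicin with AMH remained: Actg2 (-1.13), Synpo2 (-0.69) and Ldb3 (-0.63). Of all genes 0.746% were called. Fbxl22 (-0.82, limma adjusted p = 0.0545) and Hspb7 (-0.88, limma adjusted p = 0.0685) came nearest of the others, and all 25 values stayed below 0. Oestrogen-responsive genes summed to 825 to 1052 FPKM in the doxorubicin+AMH libraries, where 10 of 18 tested fell and 1 rose. Pericyte markers summed to 156 to 250 FPKM, with 5 of 9 higher, and endothelial markers to 144 to 255 FPKM against 83.3 to 200 FPKM, with 6 of 8 higher. Stroma markers summed to 1666 to 2057 FPKM against 2843 to 3774 FPKM, without overlap, with 4 of 10 lower: Col1a2 (-1.32), Col1a1 (-1.29), Col3a1 (-0.99) and Lum (-0.59). Epithelial markers summed to 674 to 877 FPKM against 699 to 2437 FPKM, with 3 lower and 1 higher of 10. Macrophage markers had 2 of 8 lower, and skeletal muscle markers 2 lower and 2 higher of 6. Of the oviduct, ovary and nerve and glia markers 1 each was higher, and mesothelium and adipocyte markers had 0 called. Their part in the result was not tested.

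**Figure D3:**
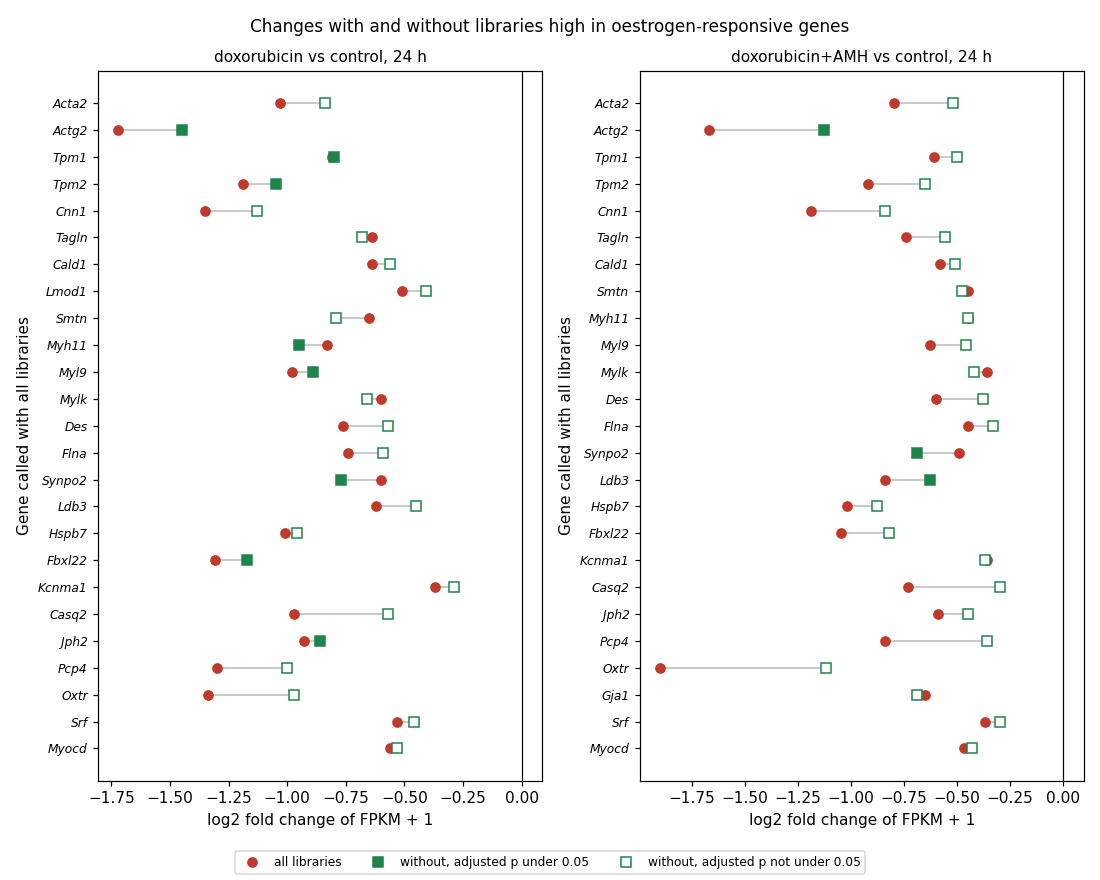
Log2 fold change of FPKM + 1 (x axis) at 24 h of each contractile gene called with all libraries (y axis), for doxorubicin and doxorubicin+AMH against control (2 panels), with all 40 libraries and without those high in oestrogen-responsive genes. Of the values without those libraries, 8 and 3 have adjusted p under 0.05, and all lie below 0.

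Of the lists after doxorubicin with AMH at 24 h, adhesion and cytoskeleton had 20 lower and 2 higher of 45, led by Pdlim7 (36.9 against 69.1 FPKM, -0.88). SRF cofactors and regulators had 8 lower and 2 higher of 28, with Mrtfb higher (12.3 against 7.41 FPKM, 0.68). The non-muscle and striated relatives had 13 lower and 0 higher of 25, and the uterotonic receptors and channels 3 lower and 9 higher of 37, with Kcnh2 lower (13.1 against 29.2 FPKM, -1.09) and Avpr1a, a vasopressin receptor, higher (1.44 against 0.595 FPKM, 0.61).

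The direct comparison of doxorubicin+AMH with doxorubicin asks whether AMH changed the levels seen under doxorubicin. At 24 h 0 of 32 genes passed the limma test (lowest adjusted p = 0.095, Gja1), and 0 by voom on rebuilt reads. At an unadjusted p under 0.05, 6 were higher and 1 lower, where 12.4% of all genes had such a p. With array weights, which count variable libraries less, 9 passed: Myh11 (0.49), Myl9 (0.39), Mylk (0.32), Ppp1r12b (0.65), Flna (0.34), Jph2 (0.43), Pcp4 (0.68) and Srf (0.24) higher and Gja1 (-0.80) lower, with 12.8% of all genes called. Without these weights the median log2 fold change was 0.16, and 0.203% of all genes fell and 0.129% rose. Gja1 had -0.83 (SE 0.22), and all 5 doxorubicin+AMH libraries lay below all 5 doxorubicin libraries. Ppp1r12b had 0.49 (limma adjusted p = 0.13), at 36.9 ± 7.09 against 25.8 ± 3.32 FPKM. For Acta2 the difference was 0.24, with an interval of 2 SE each way of -0.07 to 0.54, and for Actg2 0.04, with an interval of -0.44 to 0.53.

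The effect of doxorubicin under AMH, minus its effect without AMH, was also tested. At 24 h 0 of 32 genes passed, as did 0% of all genes (limma, lowest adjusted p among the 32 = 0.921, and 0 by voom). With array weights 6 passed, all positive, with 0.425% of all genes: Cnn1 (1.23), Tpm2 (1.07), Acta2 (1.00), Myl9 (0.94), Tpm1 (0.81) and Flna (0.69). Without weights, at an unadjusted p under 0.05, 18 of the 32 had a positive difference and 0 a negative one, where 4.16% of all genes had such a p. The median difference was 0.49 on the log2 scale, with Actg2 at 0.93 (SE 0.34), Acta2 at 0.79 (SE 0.22) and Myl9 at 0.78 (SE 0.20), none of which passed the adjusted test without weights. At 4 h 0 of 32 genes and 0% of all genes passed, and 0 by voom (limma, lowest adjusted p = 0.216, Srf, with a median difference of 0.23). At an unadjusted p under 0.05, 7 were positive and 0 negative, where 14.5% of all genes had such a p. With array weights Cnn1 (0.80) and Srf (0.41) passed at 4 h, where the share of all genes is not given here.

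**Figure D4:**
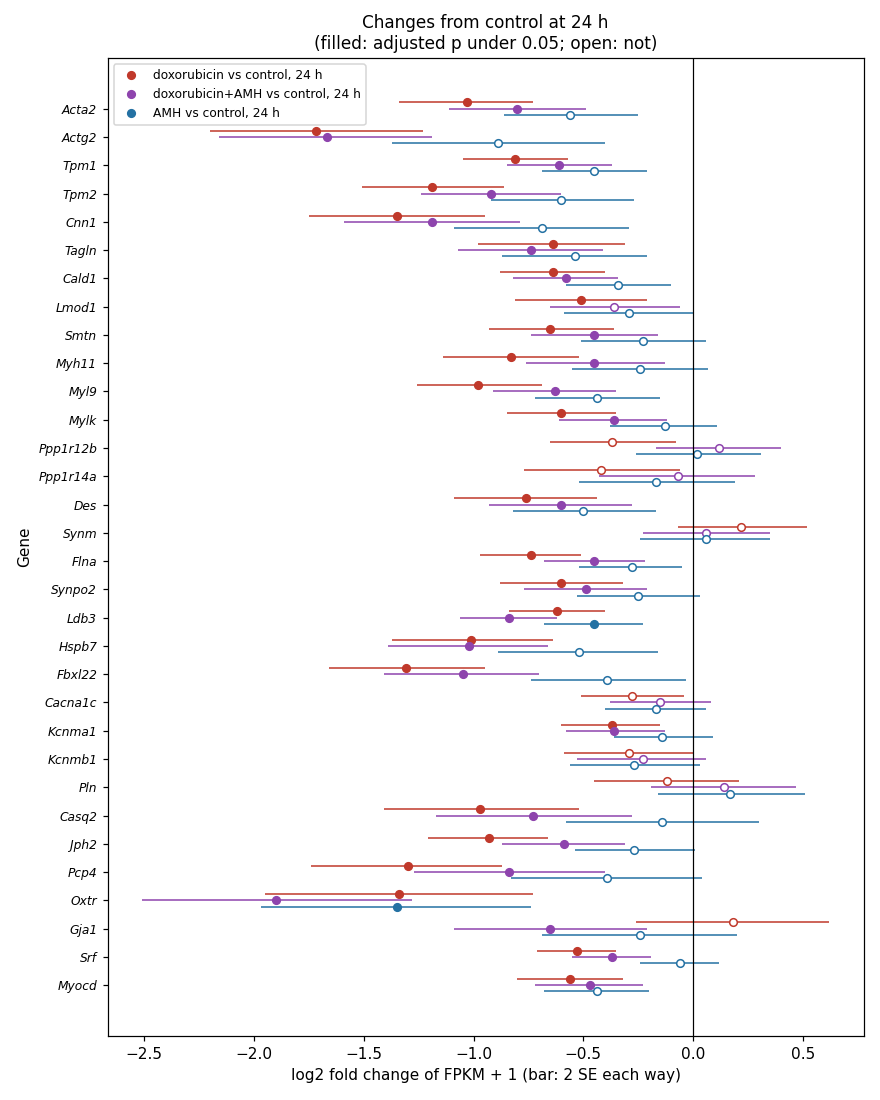
Log2 fold change of FPKM + 1 against control at 24 h (x axis, bars 2 SE each way) of each contractile gene (y axis) after doxorubicin, doxorubicin+AMH and AMH, which share their control libraries. Filled points have adjusted p under 0.05. The filled points of doxorubicin and doxorubicin+AMH all lie below 0, down to -1.90 for Oxtr after doxorubicin+AMH, and the AMH points lie between -1.35 and 0.17, with Oxtr and Ldb3 filled.

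After AMH alone at 24 h, 2 of the 32 genes fell and 0 rose (median log2 fold change -0.29, 29 of 32 below 0 against 51.5% of all genes), while 0.271% of all genes fell and 0.191% rose. Oxtr read 10.6, 5.46, 9.5, 4.6 and 5.8 FPKM, against 21.8 ± 12.3 FPKM in controls (SD, n = 5), a log2 fold change of -1.35 (SE 0.31, limma adjusted p = 0.0421). AMH library 1 and control library 3 read the same to 3 digits, and the rest of the AMH libraries lay below every control. Ldb3 was 1.32 ± 0.0852 against 2.22 ± 0.577 FPKM (-0.45, adjusted p = 0.0497). Ldb3 lost its call without the libraries high in oviduct markers (limma adjusted p = 0.0567), and both lost it without the libraries high in oestrogen-responsive genes (Oxtr -0.68 and Ldb3 -0.26). Leaving out control library 1, 2 or 4 or AMH library 2, 4 or 5 gave 0 calls, while leaving out control library 3 gave 12, control library 5 8, AMH library 1 5 and AMH library 3 9. The share of all genes called under each omission is not given here, so these counts have no background.

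Most contractile genes overlapped the controls after AMH at 24 h. Actg2 read 407, 263, 466, 279 and 319 FPKM (-0.89, limma adjusted p = 0.0761) and Acta2 2230, 1550, 1758, 1404 and 1856 FPKM (-0.56, limma adjusted p = 0.0768). Neither passed the test, and both groups overlap. With array weights both were called lower, Actg2 at -1.21 and Acta2 at -0.72 (limma adjusted p = 0.00194 and 0.00368). That setting also called Cnn1 (-0.91), Tpm2 (-0.76), Des (-0.64), Tagln (-0.60), Hspb7 (-0.59), Tpm1 (-0.55), Myl9 (-0.55), Myocd (-0.41), Cald1 (-0.38) and Flna (-0.35) lower. The 4 pathway lists held 3 called genes, all lower and all of adhesion and cytoskeleton: Lpp (-0.50), Itgb1 (-0.36) and Hspb8 (-0.49). Against AMH alone, doxorubicin+AMH at 24 h had 0 of 32 called (limma, lowest adjusted p = 0.131, Fbxl22) and 0 by voom. At an unadjusted p under 0.05, 9 were lower and 0 higher, where 14.2% of all genes had such a p. The median was -0.23, and 0.0431% of all genes fell and 0.0555% rose. Actg2 (-0.79), Srf (-0.32), Fbxl22 (-0.67) and Ldb3 (-0.39) did not overlap between these groups, and these 4 were called lower with array weights. Shares of all genes without overlap, or called with array weights, are not given here.

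At 4 h after doxorubicin, 5 of the 32 genes fell and 0 rose, with 32 of 32 values below 0 (median log2 fold change -0.39), against 48.2% of all tested genes. Of all genes 0.105% fell and 0.388% rose. Pln read 2.76, 2.66, 3.81, 2.7 and 3.1 FPKM in controls and 1.34, 1.21, 0.885, 2.01 and 1.87 FPKM after doxorubicin, without overlap (-0.72, SE 0.17, limma adjusted p = 0.0355). Mylk read 136, 165, 155, 166 and 149 FPKM against 105, 104, 87.1, 120 and 127 FPKM, also without overlap (-0.51, limma adjusted p = 0.0448). Srf read 53.8, 62.1, 56.7, 63.2 and 47.7 FPKM against 36.2, 43, 43.1, 43.7 and 50.4 FPKM (-0.38, limma adjusted p = 0.0373), with doxorubicin library 5 inside the range of controls. Fbxl22 was 12.8 ± 3.21 against 21.8 ± 2.47 FPKM (-0.74) and Jph2 40.8 ± 8.32 against 60.9 ± 9.76 FPKM (-0.58).

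Oxtr had the largest value at 4 h, 1.82, 2.15, 1.71, 3.45 and 1.11 FPKM after doxorubicin against 3.57, 7.95, 5.26, 6.66 and 3.48 FPKM (-1.06), and did not pass the test (limma adjusted p = 0.12) although the groups did not overlap. Smtn read 58.5, 69.6, 59, 77.3 and 74 FPKM against 84.6, 103, 109, 108 and 97 FPKM (-0.56, limma adjusted p = 0.0619). Neither Gja1 (-0.03, 2 SE each way -0.47 to 0.41) nor Myh11 (-0.10, 2 SE each way -0.41 to 0.21) passed.

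The 4 h calls sat near the threshold. The count was 0 without filter, 0 with only these groups in the fit, 0 without the libraries high in oviduct markers and 1 without those high in oestrogen-responsive genes. That call was Oxtr (-1.19, limma adjusted p = 0.0344), and all 5 genes called with all libraries lost theirs. With array weights, or with replicate numbers as a block, all 5 kept their calls and others were added. Array weights added Oxtr (-1.01), Casq2 (-0.75), Cnn1 (-0.67), Smtn (-0.55), Synpo2 (-0.50), Tpm1 (-0.45) and Ppp1r12b (-0.38). The block added Smtn (-0.56), Synpo2 (-0.51) and Tpm1 (-0.45). Leaving out control library 2, 3 or 4 or doxorubicin library 1, 2 or 3 gave 0 calls, control library 1 gave 1 and control library 5 gave 3. Shares of all genes called under these alternatives are not given here. Of the 4 pathway lists 1 gene was called, Itga7, a laminin receptor chain of muscle (4.5 against 6.6 FPKM, -0.47, limma adjusted p = 0.013). Adipocyte markers summed to 1.71 to 72.8 FPKM against 27 to 176 FPKM in controls, with 0 of 5 called. Their part in the result was not tested.

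Doxorubicin+AMH at 4 h had 0 of 32 genes called against the same 4 h controls (limma, lowest adjusted p = 0.0652, Oxtr) and 0 by voom. Of the 32 values 31 were below 0 (median -0.34), against 47.6% of all genes. At an unadjusted p under 0.05, 20 were lower and 0 higher, where 17.7% of all genes had such a p. With array weights 17 were called and with only these groups in the fit 8, all lower, without the shares of all genes under these settings beside them. Of all genes 0.179% fell and 0.216% rose. Oxtr read 0.954, 1.8, 1.79, 1.95 and 2.02 FPKM, below every control (-1.20). Gja1 read 10.8, 9.33, 9.9, 11.1 and 6.97 FPKM against 17, 16.3, 13.1, 19 and 16.9 FPKM in controls, also without overlap (-0.72, limma adjusted p = 0.113), and Actg2 353, 294, 260, 219 and 177 FPKM (-0.84, limma adjusted p = 0.0971). Against doxorubicin at 4 h, 0 of 32 genes were called (limma, lowest adjusted p = 0.597, Gja1) and 0 by voom, while 0% of all genes fell and 0.00616% rose. At an unadjusted p under 0.05, 2 were higher and 1 lower, where 6.92% of all genes had such a p. Gja1 had -0.69 (SE 0.22), with all 5 doxorubicin+AMH libraries below all 5 doxorubicin libraries, as at 24 h. Against AMH alone at 4 h, 0 of 32 were called (limma, lowest adjusted p = 0.183, Smtn) and 0 by voom, while 0.173% of all genes fell and 0.0493% rose. At an unadjusted p under 0.05, 13 were lower and 0 higher, where 11.1% of all genes had such a p. With array weights 8 were called and with only these groups in the fit 5, all lower, again without the shares of all genes beside them.

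Of the comparisons between treatments, AMH alone against control at 4 h was the one in which contractile genes were called in both directions. Against control 6 of the 32 fell and 1 rose (median log2 fold change -0.15, 22 below 0), where 10.9% of all genes fell and 9.13% rose. Calls in both directions were thus not particular to these genes. Actg2 read 412, 544, 401, 536 and 409 FPKM in controls and 226, 268, 292, 256 and 233 FPKM after AMH, without overlap (-0.84, SE 0.24, limma adjusted p = 0.0158). Cnn1 read 257, 331, 278, 334 and 232 FPKM against 160, 194, 157, 178 and 170 FPKM, also without overlap (-0.72, limma adjusted p = 0.0133). Hspb7 was 20.1 ± 1.04 against 34.2 ± 7.9 FPKM (-0.71), Casq2 1.73 ± 0.915 against 3.52 ± 0.893 FPKM (-0.76) and Ldb3 0.955 ± 0.124 against 1.44 ± 0.199 FPKM (-0.32). Srf read 45.6, 48.5, 47.2, 49.1 and 44.8 FPKM (-0.26), which overlaps the controls.

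Myocd rose while Srf fell at 4 h after AMH. It read 4.04, 5.17, 4.13, 3.74 and 5.31 FPKM in controls and 5.75, 7.07, 6.27, 5.97 and 6.5 FPKM after AMH, with every AMH library higher (0.42, SE 0.12, limma adjusted p = 0.015). Myh11 read 291, 315, 253, 281 and 292 FPKM after AMH against 178, 254, 237, 247 and 221 FPKM and did not pass (0.34, limma adjusted p = 0.11). Des read 194, 226, 197, 227 and 209 FPKM against 251, 318, 262, 329 and 235 FPKM (-0.40, limma adjusted p = 0.0791), separate but not called, and Acta2 had -0.31 (limma adjusted p = 0.144). Ldb3 and Srf lay near the threshold (limma adjusted p = 0.0377 and 0.0395), and each lost its call when any 1 of 8 of the 10 libraries was left out and without the libraries high in oviduct markers (0.0788 and 0.104). Casq2 lost its call without AMH library 1 or 5 (0.056 and 0.051), and without AMH library 1 the count was 4.

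Of the lists at 4 h after AMH, the uterotonic receptors and channels had 13 higher and 2 lower of 37. They were led by Kcnj8, a pore of ATP-sensitive potassium channels in smooth muscle and pericytes (53.3 against 23 FPKM, 1.18), Avpr1a (1.32 against 0.546 FPKM, 0.58) and the gap junction gene Gjc1 (15.4 against 11 FPKM, 0.45). SRF cofactors and regulators had 3 higher and 0 lower of 28: Foxo4 (27.6 against 13.6 FPKM, 0.97), Mrtfb (0.48) and Mef2a (0.27). Adhesion and cytoskeleton had 9 higher and 4 lower of 45, and the non-muscle and striated relatives 7 lower and 0 higher of 25, such as Tpm4 (102 against 164 FPKM, -0.69). Pericyte markers summed to 229 to 275 FPKM against 166 to 203 FPKM in controls, with 2 of 9 higher, Kcnj8 and Abcc9, both of which the uterotonic list also holds. Endothelial markers summed to 188 to 248 FPKM against 144 to 176 FPKM, without overlap, with 1 of 8 higher, Cldn5 (1.41). Stroma markers had 3 of 10 lower, Col1a1 (550 against 1110 FPKM), Vcan (-0.88) and Col1a2 (-0.75), and mesothelium markers 2 of 5, Lrrn4 (-1.68) and Upk3b (-1.62). Oestrogen-responsive genes had 2 lower and 1 higher of 18 (median -0.79), skeletal muscle markers 2 lower and 1 higher of 6, and macrophage markers 1 of 8 lower. The other 5 lists of markers had 0 called. Their part in the result was not tested.

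**Figure D5:**
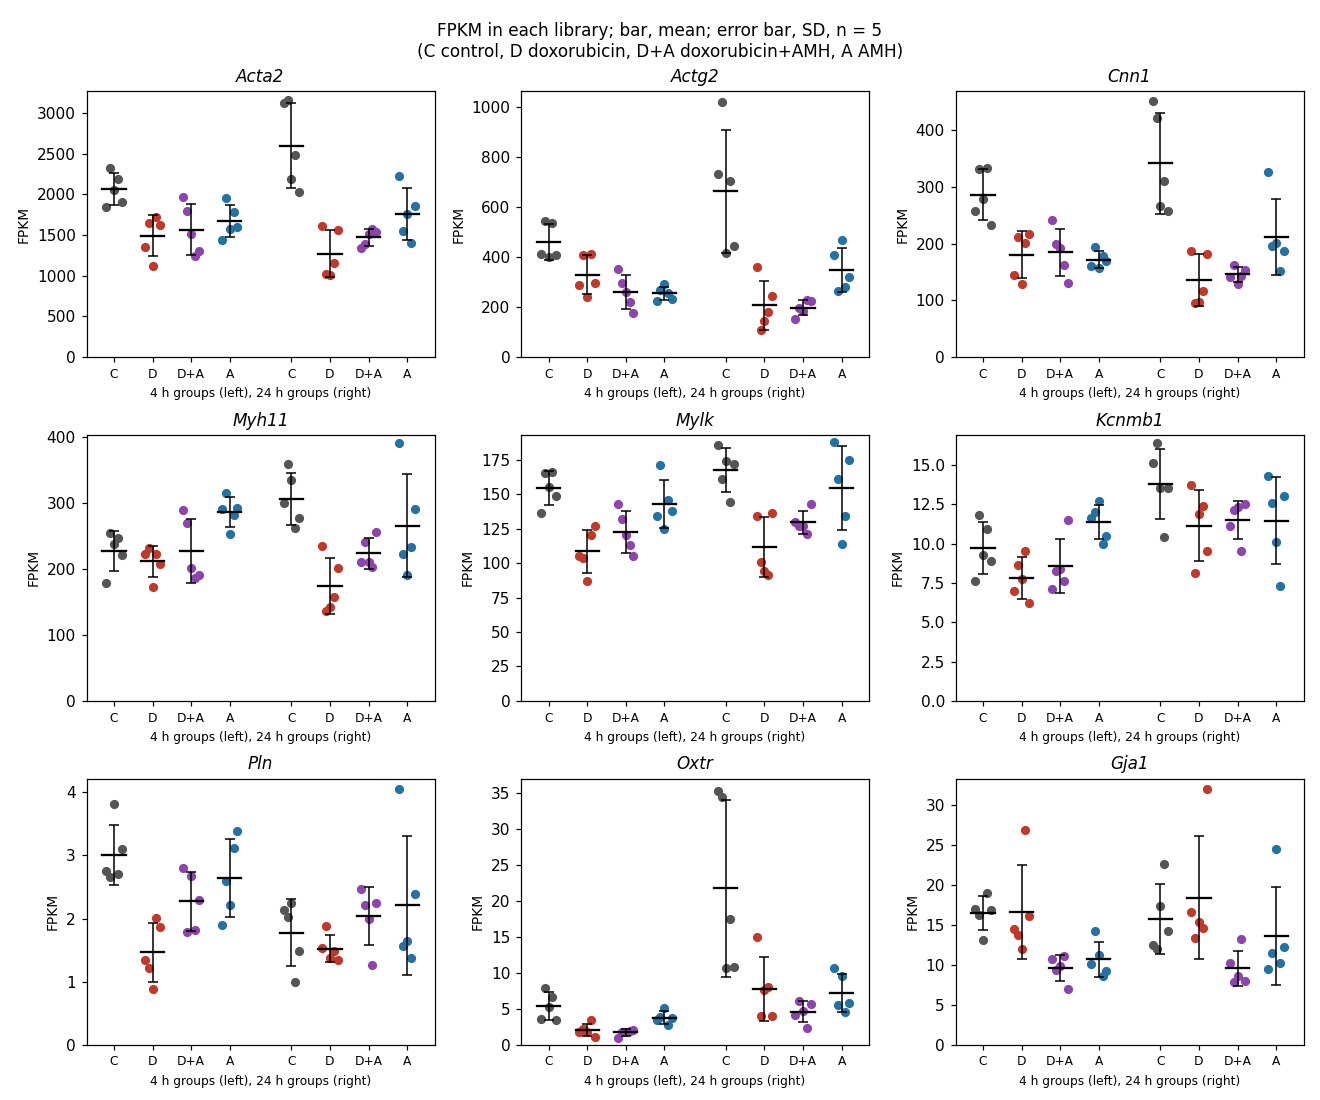
FPKM (y axis) of 9 contractile genes in each library (points) of the 8 groups (x axis), with the mean (bar) and SD (error bar, n = 5). The means of Acta2, Actg2 and Cnn1 are highest in the 24 h controls, Kcnmb1 and Pln overlap between all 24 h groups, and Oxtr reaches 35.3 FPKM in a 24 h control and no more than 15 FPKM in the other 24 h groups.

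Between 4 h and 24 h the controls themselves differed. Of the 32 genes 6 rose and 1 fell (median log2 fold change 0.29, 3 below 0), while 3.04% of all genes fell and 4.28% rose. Myocd rose from 4.48 ± 0.714 to 8.9 ± 1.16 FPKM (SD, n = 5), a log2 fold change of 0.86 (SE 0.12, limma adjusted p = 2.31e-05). Oxtr rose from 5.38 ± 1.94 to 21.8 ± 12.3 FPKM (1.71, SE 0.31, limma adjusted p = 0.00076). In both every 24 h library was higher. Lmod1 (0.53), Tagln (0.52), Kcnmb1 (0.47) and Ldb3 (0.38) rose, and Pln fell from 3.01 ± 0.481 to 1.78 ± 0.525 FPKM (-0.54, limma adjusted p = 0.0407). Kcnmb1 read 7.6, 11.8, 9.26, 10.9 and 8.92 FPKM at 4 h and overlapped its 24 h values.

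The count of 7 in controls over time was 1 without the libraries high in oestrogen-responsive genes. It was 2 without control library 1 or 5 at 4 h or control library 1 or 2 at 24 h, and 4 without control library 3 at 4 h. Shares of all genes called under these omissions are not given here. Of the lists, adhesion and cytoskeleton had 6 higher and 0 lower of 45, such as Filip1l (42.9 against 22.2 FPKM, 0.90). Uterotonic receptors and channels had 3 lower and 1 higher of 37, with Ano1, a calcium-activated chloride channel, the lowest in p (12 against 25.1 FPKM, -1.20). Pericyte markers had 2 of 9 lower (median -0.49, 9 below 0) and endothelial markers 1 of 8 (median -0.33, 7 below 0). Of ovary markers 1 of 4 was lower, of epithelial markers 1 of 10 higher, and of oestrogen-responsive genes 1 of 18 (median 0.65, summed level 663 to 7951 FPKM against 740 to 1392 FPKM). Their part in the result was not tested.

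After treatment the same interval was tested within each group. With doxorubicin 1 of 32 genes rose, Oxtr, from 2.05 ± 0.872 to 7.74 ± 4.5 FPKM (1.43, SE 0.31, limma adjusted p = 0.0111), with all 24 h libraries higher, while 0.721% of all genes fell and 0.857% rose. Leaving out doxorubicin library 1 or 5 at 24 h gave 2 and 3 calls, and the count was 0 without the libraries high in oestrogen-responsive genes. Shares of all genes called under these omissions are not given here. With doxorubicin+AMH 0 of 32 were called (limma, lowest adjusted p = 0.343, Oxtr) and 0 by voom, while 0.0185% of all genes fell and 0.0555% rose. At an unadjusted p under 0.05, 6 were higher and 0 lower, where 7.81% of all genes had such a p. With array weights 4 rose, Oxtr (1.14), Synm (0.48), Kcnmb1 (0.46) and Lmod1 (0.41), where the share of all genes is not given here. With AMH alone Srf rose, from 47 ± 1.85 to 58.4 ± 6.22 FPKM (0.30, limma adjusted p = 0.0492), while 1.53% of all genes fell and 2.47% rose. That call was lost when any 1 of 8 of the 10 libraries was left out.

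The change of the doxorubicin effect from 4 h to 24 h was tested directly. Of the 32 genes 0 passed (limma, lowest adjusted p = 0.487, and 0 by voom), while 0.00616% of all genes fell and 0.00616% rose. At an unadjusted p under 0.05, 12 were lower and 1 higher, where 9.74% of all genes had such a p. The median of the difference was -0.34 on the log2 scale. Actg2 had -1.22 (SE 0.34), Pcp4 -1.12 (SE 0.31), Tpm2 -0.80 (SE 0.23) and Myh11 -0.73 (SE 0.22). Pln, called at 4 h but not at 24 h, had 0.60 (SE 0.24). With array weights 8 passed, all lower, with 6.55% of all genes: Actg2 (-1.45), Pcp4 (-1.39), Tpm2 (-0.96), Cnn1 (-0.89), Myl9 (-0.82), Myh11 (-0.76), Acta2 (-0.73) and Flna (-0.53). Whether the effect differed between 4 h and 24 h thus depended on the weighting of libraries.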

How the data were processed

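RNA was sequenced from 40 mouse uterus libraries (8 groups of 5). The authors deposited gene-level FPKM values with gene names, positions and lengths, as seen in the file headers. The submitters' processing notes name build mm10. Neither aligner, counting program nor use of strand is given in the sources used here. Every value column was mapped to a sample by its name.

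FPKM multiplied by gene length recovered whole reads for 100% of values (tolerance 0.01 reads), 16251563 to 27391049 reads in genes per library. Libraries of a group always differed beyond sampling noise (chi-square per degree of freedom of 8.95 or more). The filter kept 16226 of 54532 genes, those with at least 1 FPKM in 5 libraries or more.

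Log2(FPKM + 1) values were tested with limma 3.58.1 in R 4.3.3, using a mean-variance trend and all 8 groups in 1 fit (32 residual degrees of freedom). The 17 comparisons gave two-sided p-values, adjusted by Benjamini-Hochberg over all tested genes within each comparison, with a threshold of 0.05. The script was tested on simulated data. Settings varied one at a time were the pseudocount (0.1), the filter (none, or 5 FPKM), scaling (median of ratios), the groups in the fit, array weights, blocking on replicate numbers, a voom fit of the rebuilt reads, and libraries left out (those high in oviduct or in oestrogen-responsive genes, and each in turn). Promoter sequences and positions are those of RefSeq, build GRCm38.p6. Plots were made with matplotlib 3.10.9 under Python 3.11.15.

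The 32 genes, their roles and the gene and marker lists were chosen with earlier results of these data known, so no list is independent evidence. All 32 genes are named by role, 16 of them with the value in every library where a result turns on it. From each pathway list, up to 4 called genes with the smallest p per comparison could be named. A further pathway list is not reported here.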

Additional observations from a re-analysis of the deposited data

Results flagged for a closer look

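In 12 of 256 sets of 5 libraries (32 genes in 8 groups), 1 library stood apart from the other 4 by Dixon's 95% limit, and chance alone flags about 1 in 20 such sets. Of these, 3 were in library 1 of AMH at 24 h, the highest of its group for Tpm2 (419 FPKM, next 292), Smtn (167 FPKM, next 105) and Des (377 FPKM, next 237). Library 2 of AMH at 4 h was the highest for Cald1 (60.2 FPKM, next 49.6) and Synpo2 (41.6 FPKM, next 33.4). Library 2 of the 4 h controls was the highest for Cald1 (62.1 FPKM, next 55.6), and library 3 of that group the lowest for Casq2 (1.93 FPKM, next 3.8).

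Gja1 stood apart in 3 groups, each time as a single high library: doxorubicin at 4 h, library 4 (26.9 FPKM, next 16.1), doxorubicin at 24 h, library 5 (32.1 FPKM, next 16.6), and AMH at 24 h, library 3 (24.5 FPKM, next 12.2). Oxtr was lowest in library 1 of doxorubicin+AMH at 4 h (0.954 FPKM, next 1.79), and Kcnma1 in library 3 of doxorubicin+AMH at 24 h (0.584 FPKM, next 0.846).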

How the results depend on the processing

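Counts are of the 32 genes called. No gene called in a comparison of treatments at 1 time changed direction under any alternative run. Calls over time were not checked for this gene by gene. With all settings as in the report they were 5 (doxorubicin, 4 h), 7 (AMH, 4 h), 25 (doxorubicin, 24 h), 25 (doxorubicin+AMH, 24 h), 2 (AMH, 24 h), 7 (controls over time), 1 (doxorubicin over time), 1 (AMH over time) and 0 elsewhere. Median-of-ratios scaling moved no count by over 1.5 times, nor did any alternative for doxorubicin+AMH against doxorubicin at 4 h. The counts that moved by over 1.5 times were the following. With only the groups compared in the fit they were 0 (doxorubicin, 4 h), 8 (doxorubicin+AMH, 4 h), 14 (AMH, 4 h), 5 (doxorubicin+AMH against AMH, 4 h), 0 (doxorubicin, 24 h), 0 (AMH, 24 h), 1 (controls over time), 0 (doxorubicin over time) and 0 (AMH over time). With array weights they were 12 (doxorubicin, 4 h), 17 (doxorubicin+AMH, 4 h), 15 (AMH, 4 h), 8 (doxorubicin+AMH against AMH, 4 h), 9 (doxorubicin+AMH against doxorubicin, 24 h), 14 (AMH, 24 h), 4 (doxorubicin+AMH against AMH, 24 h), 10 (doxorubicin over time), 4 (doxorubicin+AMH over time), 8 (effect at 24 h minus 4 h), 2 (effect under AMH minus without, 4 h) and 6 (effect under AMH minus without, 24 h). The 9 under array weights were 8 higher and 1 lower, and the 6 were all positive. Without the libraries high in oestrogen-responsive genes they were 1 (doxorubicin, 4 h), 2 (doxorubicin+AMH, 4 h), 8 (doxorubicin, 24 h), 3 (doxorubicin+AMH, 24 h), 0 (AMH, 24 h), 1 (controls over time), 0 (doxorubicin over time) and 0 (AMH over time), and without those high in oviduct markers 0 (doxorubicin, 4 h) and 1 (AMH, 24 h). Without filter they were 0 (doxorubicin, 4 h), 0 (AMH, 24 h), 2 (controls over time) and 0 (AMH over time), with a filter at 5 FPKM 1 (AMH, 24 h), with a pseudocount of 0.1 1 (doxorubicin+AMH, 4 h), 1 (AMH, 24 h) and 0 (AMH over time) and with voom 2 (doxorubicin, 4 h), 1 (AMH, 24 h), 3 (controls over time) and 0 (AMH over time). The share of all genes called also changes with the setting and is not given beside these counts. Beyond fewer samples in a fit or other genes tested, the cause was not tested.

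Leaving out 1 library at a time gave 0 to 7 (doxorubicin, 4 h), 0 to 1 (doxorubicin+AMH, 4 h), 4 to 8 (AMH, 4 h), 23 to 26 (doxorubicin, 24 h), 23 to 25 (doxorubicin+AMH, 24 h), 0 to 1 (doxorubicin+AMH against doxorubicin, 24 h), 0 to 12 (AMH, 24 h), 2 to 8 (controls over time), 1 to 3 (doxorubicin over time), 0 to 1 (AMH over time) and 0 for the others. The 1 call against control at 4 h came without control library 3, and the 1 call against doxorubicin at 24 h without doxorubicin+AMH library 4. Shares of all genes called are not given beside these counts either.

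Replicate numbers did not pair the libraries: of 70 same-numbered pairs, 28 had correlated deviations over 0.1 (range -0.71 to 0.39), and in 0 comparisons did all pairs. With the replicate block, the counts that moved were 8 (doxorubicin, 4 h), 1 (AMH, 24 h) and 0 (AMH over time), and doxorubicin at 24 h stayed at 25. Depth limits the lowest genes: in their lowest library Ldb3, Pln, Casq2 and Kcnma1 rest on 43, 43, 26 and 131 reads.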
